A study of Mus musculus with 12 samples.

Results

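The genes described here are 10 genes that astrocytes are commonly recognized by, namely Gfap, Vim, Serpina3n, Aqp4, Gja1, Gjb6, Glul, Aldh1l1, S100b and Sox9. They were taken by gene symbol from a table of 33024 genes, and all 10 were among the 16059 genes expressed highly enough to be tested. The table holds RNA sequencing counts from the brain cortex of 12 C57BL/6 mice, and the comparison asks which transcripts still differ after a period of binge-like drinking has ended. The 5 mice of the EtOH group had nightly access to 20% (v/v) ethanol beside water for 35 days from the age of 30 days, in a two-bottle choice, drinking in the dark schedule. The 7 mice of the Control group are labelled vehicle and drank water. Both groups then had 14 days without ethanol and went through behavioural tests, and were perfused with saline before the cortex was frozen. All mice were wildtype, and the tissue was not sorted, so every value is a mixture of cell types.

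Astrocytes take up glutamate and potassium around synapses, carry water channels on the endfeet that wrap blood vessels, and are joined to each other by gap junctions. After injury or inflammation they become reactive, a state long recognized by more of the intermediate filament protein GFAP. Reactive astrocytes do not all express the same genes, and astrocytes of white matter and hippocampus carry more GFAP than those of the cortical grey matter.

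Total counts ranged from 31768079 to 42183031 per mouse, and the rarest of the 10 genes, Serpina3n, had 420 to 724 counts in each mouse. Levels are given as CPM, the counts of a gene per 1000000 counts of its library after scaling between libraries. The groups also differed in markers of neighbouring brain regions. All 12 of 12 striatal markers were lower in EtOH mice (Drd2, Rgs9 and Ppp1r1b by 4.97, 3.13 and 2.63 on the log2 scale), with a summed level of 1036 to 2473 CPM in Control mice and 239.7 to 313 CPM in EtOH mice. All 8 of 8 hippocampal markers were higher (Fibcd1, C1ql2 and Dsp, with log2 fold changes of 2.62, 4.29 and 4.97), and their sum was 29.1 to 36.5 CPM in Control mice against 138 to 183 CPM in EtOH mice. Choroid plexus markers summed to 8.15 to 23.5 CPM in Control mice and to 126, 22.99, 1011, 285 and 13.5 CPM in EtOH mice 1 to 5, with 5 of 7 tested markers called higher, led by Kl, Ttr and Prlr. Of 9 neuron markers 0 were called, but 4 were lower and 1 was higher at an adjusted p under 0.05, and of 5 markers of oligodendrocyte precursors 0 were called, with 2 higher and 1 lower at that threshold (23.7% of all genes tested passed it in either direction). Among markers of mural cells, ependyma and blood 0 were called and 0 passed that threshold, and 1 was called among the meningeal (Dcn, higher) and 1 among the endothelial markers (Ly6c1, lower). In bulk tissue, fewer cells of a type and less RNA per cell cannot be told apart. The part of tissue composition in the differences below was not tested, and since neither the striatal nor the hippocampal sums overlapped between the groups, region and ethanol cannot be told apart in these libraries.

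Of the 10 genes, 6 passed the test for a difference between the groups and they were evenly split in direction. Gfap, Aqp4 and Gja1 rose, while Glul, S100b and Vim fell, each at an adjusted p under 0.05 (edgeR, quasi-likelihood F test, Benjamini-Hochberg over all genes). At that threshold 12.1% of all genes tested were higher and 11.6% lower (23.7% in either direction). When a log2 fold change above 0.5 in size was also asked for, which is what "called" means below, 1 of the 10 genes was called higher and 0 were called lower, beside 4.2% and 4.09% of all genes. The gene called was Gfap. The median log2 fold change of the 10 genes was 0.01, and that of all genes tested was 7.2e-05.

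**Figure D1:**
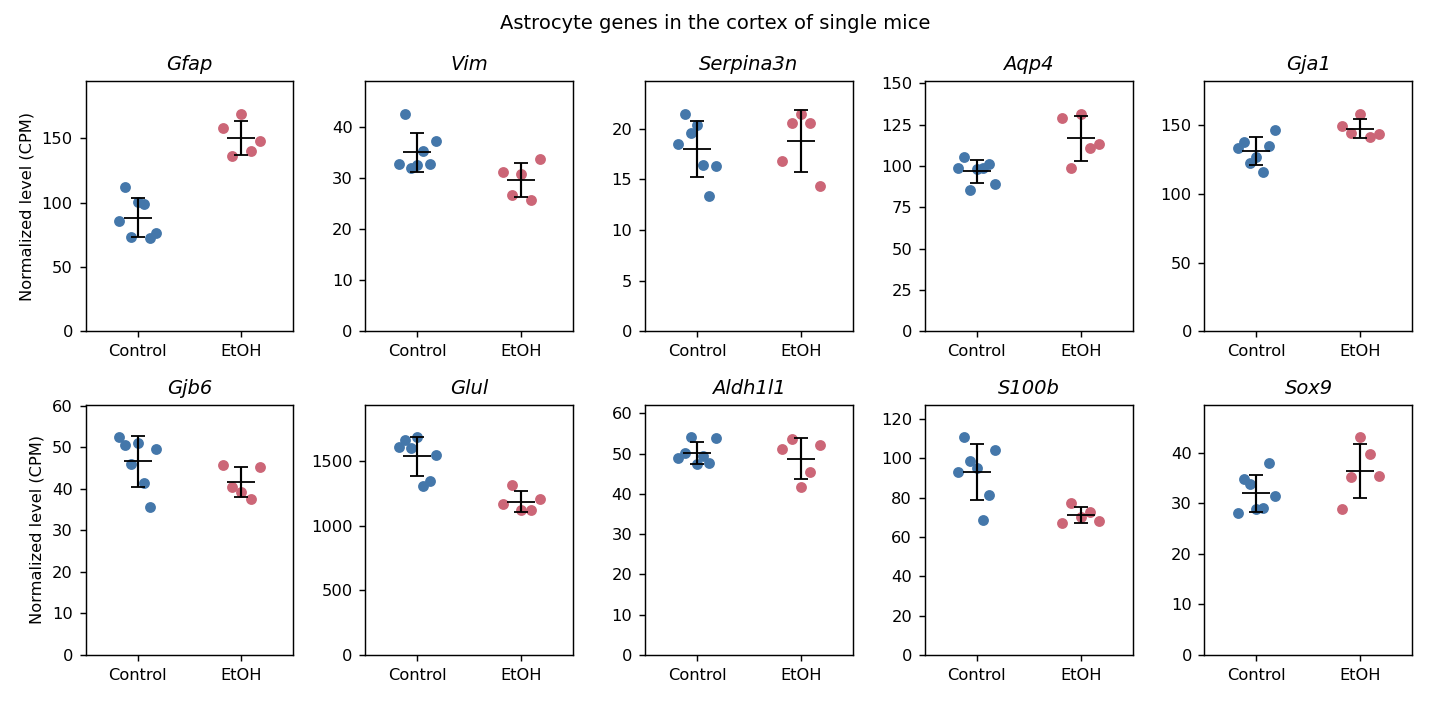
Level of each astrocyte gene in each mouse in CPM, with Control mice in blue and EtOH mice in red (points), and the group mean and SD as black bars (n = 7 and 5). The 5 EtOH points of Gfap lie between 136 and 169 CPM, above all 7 Control points, and those of every other gene overlap the Control range.

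Gfap encodes the main intermediate filament protein of mature astrocytes. Its level was 158, 136, 169, 140.4 and 148 CPM in EtOH mice 1 to 5. In Control mice it ranged from 72.4 to 112 CPM with a median of 86.0 CPM. The groups did not overlap, and the lowest EtOH mouse stood above the highest Control mouse. Such a separation was found in 1 of the 10 genes upwards and in 0 downwards, beside 4.84% and 4.96% of all genes tested. The mean was 88.3 CPM ± 15.5 (SD, n = 7) in Control and 150.2 CPM ± 13.3 (SD, n = 5) in EtOH mice, a 1.70-fold difference (log2 fold change 0.77, SE 0.10, adjusted p = 3.15e-05 by edgeR). Gfap was called higher with each mouse left out in turn, at log2 fold changes of 0.72 to 0.83.

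Vim, the filament protein vimentin that assembles with GFAP and is also made by endothelial and other cells, went the other way. It was at 31.2, 26.5, 30.7, 25.7 and 33.6 CPM in EtOH mice 1 to 5, and at 31.9 to 42.5 CPM with a median of 32.6 CPM in Control mice. EtOH mouse 5 lay inside the Control range and the other 4 below it. Vim fell by 0.24 on the log2 scale (SE 0.08, adjusted p = 0.0434 by edgeR), and it passed the threshold in 6 of the 12 fits that left out 1 mouse, being lost without Control 2, Control 7 or any of EtOH 1 to 4, with adjusted p up to 0.119. The summed endothelial markers, of cells that make vimentin too, overlapped between the groups, at 227 to 264 CPM in Control and 228 to 244 CPM in EtOH mice, and their part was not tested. Of the 8 other intermediate filament and filament-linker genes listed with them, 0 were called. Synm, the filament-binding protein synemin, rose (log2 fold change 0.27), and the neurofilament subunits Nefm and Nefh fell by 0.41 and 0.33. Nes, which encodes nestin, was at 10.96 CPM ± 1.72 (SD) in Control and 10.8 CPM ± 2.42 (SD) in EtOH mice, with an adjusted p of 0.918 by edgeR.

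Serpina3n encodes a secreted serine protease inhibitor that is a widely used marker of reactive astrocytes. EtOH mice 1 to 5 had 16.8, 20.6, 21.5, 20.6 and 14.3 CPM, all within the Control range of 13.4 to 21.5 CPM (median 18.5 CPM). The log2 fold change was 0.06 (SE 0.12, adjusted p = 0.752 by edgeR), and its sign changed when Control 6 was left out. The paralogs Serpina3c, Serpina3f, Serpina3g, Serpina3i, Serpina3k and Serpina3m, which could share reads with Serpina3n, had at most 19 counts in any mouse and were not tested. Serpina3g had 13, 2, 19, 14 and 6 counts in EtOH mice 1 to 5 and at most 4 in a Control mouse. The rest of these paralogs had at most 4 counts in any mouse.

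Aqp4 encodes aquaporin-4, the water channel of astrocyte endfeet. Its level was 129, 99.0, 132, 111 and 114 CPM in EtOH mice 1 to 5 and 85.8 to 106 CPM, with a median of 98.6 CPM, in Control mice. EtOH mouse 2 fell inside the Control range and the other 4 stood above it. Aqp4 rose 1.21-fold (log2 fold change 0.27, SE 0.07, adjusted p = 0.0104 by edgeR) and kept an adjusted p under 0.05 with each mouse left out in turn. Among 9 genes of the dystrophin-associated complex and matrix that hold the channel at the endfoot, 1 was called higher and 0 lower, with a median log2 fold change of 0.14. The called gene was Sntb1, a syntrophin, at 2.55 CPM ± 0.639 (SD) in Control and 5.53 CPM ± 0.863 (SD) in EtOH mice (log2 fold change 1.12, adjusted p = 0.000136 by edgeR). Dmd, which encodes dystrophin, and Agrn, which encodes the matrix protein agrin, also rose (log2 fold changes 0.33 and 0.33), and the dystrobrevin gene Dtnb fell by 0.17.

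Gja1 and Gjb6 encode connexin 43 and connexin 30, which form the gap junctions between astrocytes. Gja1 was at 149.9, 145, 159, 141 and 144 CPM in EtOH mice 1 to 5 and at 116 to 147 CPM, with a median of 134 CPM, in Control mice. EtOH mice 1 and 3 exceeded every Control mouse and the other 3 overlapped the upper end of the Control range. Gja1 rose 1.12-fold (log2 fold change 0.17, SE 0.06, adjusted p = 0.0423 by edgeR), but the adjusted p stayed under 0.05 in only 4 of the 12 fits that left out 1 mouse (0.0179 to 0.112 over all 12), namely those without Control 2, Control 6, Control 7 or EtOH 4. Gjb6 was at 45.8, 40.4, 39.2, 37.5 and 45.2 CPM in EtOH mice, wholly within the Control range of 35.5 to 52.4 CPM (median 49.6 CPM). Its log2 fold change was -0.16 (SE 0.09, adjusted p = 0.193 by edgeR), and the adjusted p was 0.0372 without Control 6, the lowest Control mouse. The other 8 connexin genes had 0 called higher and 1 called lower. That was Gjb1, the connexin 32 of oligodendrocytes, with a log2 fold change of -0.76 (adjusted p = 0.00231 by edgeR).

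Glul encodes glutamine synthetase, which turns the glutamate astrocytes take up into glutamine. It was at 1172, 1314, 1125, 1122 and 1204 CPM in EtOH mice 1 to 5 and at 1308 to 1684 CPM, with a median of 1602 CPM, in Control mice. EtOH mouse 2 overlapped Control mouse 5 alone, and the other 4 EtOH mice lay below every Control mouse. Glul fell by 0.37 on the log2 scale, a level 22.7% lower (SE 0.07, adjusted p = 0.000849 by edgeR), and did so in all 12 fits that left out 1 mouse. The summed oligodendrocyte markers were at 3391, 5372, 3328, 3005 and 3743 CPM in EtOH mice 1 to 5, the same order as Glul. Control 5 had the lowest sum (4483 CPM) and the lowest Glul of its group. The other Control mice did not keep this order, as Control 4 had the highest Glul and the next lowest sum (4889 CPM). The part of oligodendrocyte RNA in the fall of Glul was not tested. Of 11 partner genes of the glutamate-glutamine cycle and of folate metabolism, 0 were called and 1 fell. That was Slc38a3, the glutamine exporter of astrocytes, which fell by 0.41 with every EtOH mouse below every Control mouse (97.3 CPM ± 7.89 (SD) in Control, 73.0 CPM ± 8.38 (SD) in EtOH mice, adjusted p = 0.000672 by edgeR).

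Aldh1l1 encodes a folate-pathway dehydrogenase that marks astrocytes across most brain regions. EtOH mice 1 to 5 had 51.1, 53.6, 41.7, 45.4 and 52.1 CPM, beside 47.4 to 54.0 CPM with a median of 49.5 CPM in Control mice. EtOH mice 3 and 4 were below the Control range, and these 2 also had the highest choroid plexus sums. The choroid plexus sum of EtOH mouse 1 (126 CPM) was also above every Control mouse, and its Aldh1l1 lay inside the Control range. The log2 fold change was -0.04 (SE 0.07, adjusted p = 0.684 by edgeR), and it was 0.0089 without EtOH mouse 3. The glutamate transporters Slc1a2 and Slc1a3, which deliver the substrate of glutamine synthetase, had log2 fold changes of 0.17 and 0.11 with adjusted p of 0.0603 and 0.117 by edgeR.

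S100b encodes a calcium-binding protein made by astrocytes and also by some oligodendrocytes. It was at 67.0, 77.2, 70.1, 72.7 and 68.1 CPM in EtOH mice 1 to 5, a narrow range, and at 68.8 to 111 CPM with a median of 95.05 CPM in Control mice. Only EtOH mice 1 and 5 were below every Control mouse, and Control mouse 5 was the lowest of its group. S100b fell by 0.39 on the log2 scale, a level 23.8% lower (SE 0.09, adjusted p = 0.00536 by edgeR), and passed in all 12 fits that left out 1 mouse. Oligodendrocyte markers moved the same way, with 8 of 10 lower at an adjusted p under 0.05 and 2 called lower (Mbp and Mobp), and their sum was 4483 to 5952 CPM in Control mice against 3391, 5372, 3328, 3005 and 3743 CPM in EtOH mice 1 to 5. In the EtOH group, the mouse with the highest oligodendrocyte sum (EtOH 2) had the highest S100b. The mouse with the lowest sum (EtOH 4) had the next highest, and EtOH 1 and EtOH 5, with sums between these, had the lowest. In the Control group, Control 5 had both the lowest sum and the lowest S100b. Control 7 had the highest sum and the next highest S100b (104 CPM), after Control 2 with a sum of 5026 CPM. The part of oligodendrocyte RNA in the fall of S100b was not tested. Of 6 other S100 genes, 5 were tested and 2 were called lower, S100a6 and S100a11, with log2 fold changes of -0.66 and -0.54, and S100a1 fell by 0.33.

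Sox9 encodes a transcription factor that astrocytes keep from their progenitors. Its level was 29.0, 35.2, 43.1, 39.7 and 35.4 CPM in EtOH mice 1 to 5 and 28.0 to 37.9 CPM, with a median of 31.5 CPM, in Control mice. EtOH mice 3 and 4 lay above the Control range and EtOH mouse 1 near its lower end. The log2 fold change was 0.19 (SE 0.09, adjusted p = 0.157 by edgeR), and the adjusted p was 0.0414 when EtOH mouse 1 was left out. Among 10 other transcription factors of astroglia, 0 were called higher and 1 was called lower. Id4, an inhibitor of basic helix-loop-helix factors, was at 89.5 CPM ± 12.6 (SD) in Control and 61.6 CPM ± 5.08 (SD) in EtOH mice (log2 fold change -0.54, adjusted p = 0.000284 by edgeR), with no overlap between the groups. Lhx2, Nfix and Nfib rose (log2 fold changes 0.43, 0.41 and 0.23), all of which neurons also express, and Sox2, the partner of Sox9 in progenitors, had a log2 fold change of -0.0011.

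**Figure D2:**
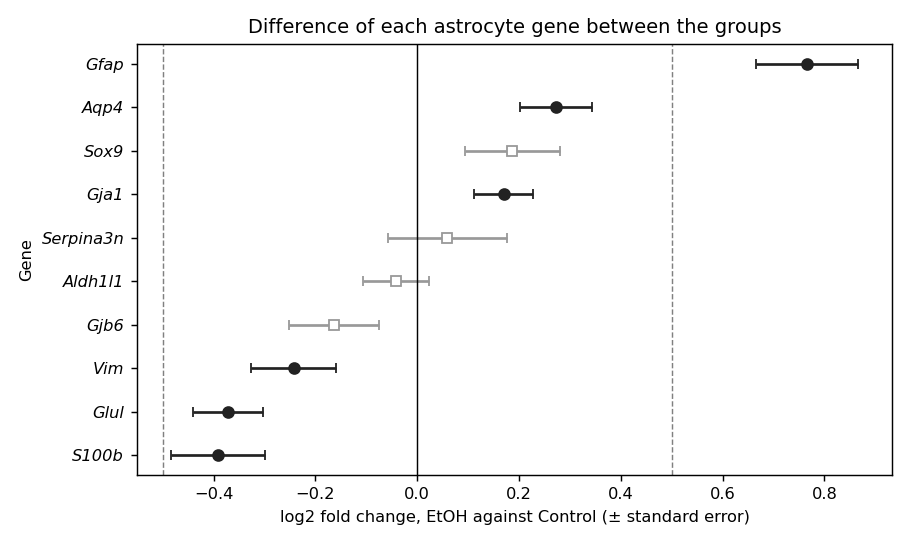
Log2 fold change of each astrocyte gene, EtOH against Control, with its standard error (horizontal axis) for the genes on the vertical axis. Filled circles passed an adjusted p under 0.05 and open squares did not. Dashed lines mark 0.5 and -0.5, and Gfap at 0.77 is the point beyond them.

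The 3 EtOH mice whose choroid plexus markers exceeded every Control mouse (EtOH 1, 3 and 4) included the mouse with the highest Gfap, Aqp4, Gja1 and Sox9, which was EtOH 3. Within the EtOH group, EtOH 1 was next highest for Gfap, Aqp4 and Gja1 and lowest for Sox9. EtOH 4 was next highest for Sox9, lowest for Gja1 and next lowest for Gfap and Aqp4. Without those 3 mice, leaving 2 EtOH mice, Gfap was still called higher (log2 fold change 0.68, SE 0.14, adjusted p = 0.00724 by edgeR). The log2 fold changes of Aqp4 and Gja1 were then 0.13 and 0.13 (adjusted p 0.389 and 0.365 by edgeR), less than with all mice. Those of Glul, S100b and Vim were -0.29, -0.37 and -0.22 (adjusted p 0.0907, 0.128 and 0.279). In the 2 EtOH mice whose choroid plexus sums were within the Control range, EtOH 2 (22.99 CPM) and EtOH 5 (13.5 CPM), Gfap was at 136 and 148 CPM, the lowest and the third lowest of the 5 EtOH mice.

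**Figure D3:**
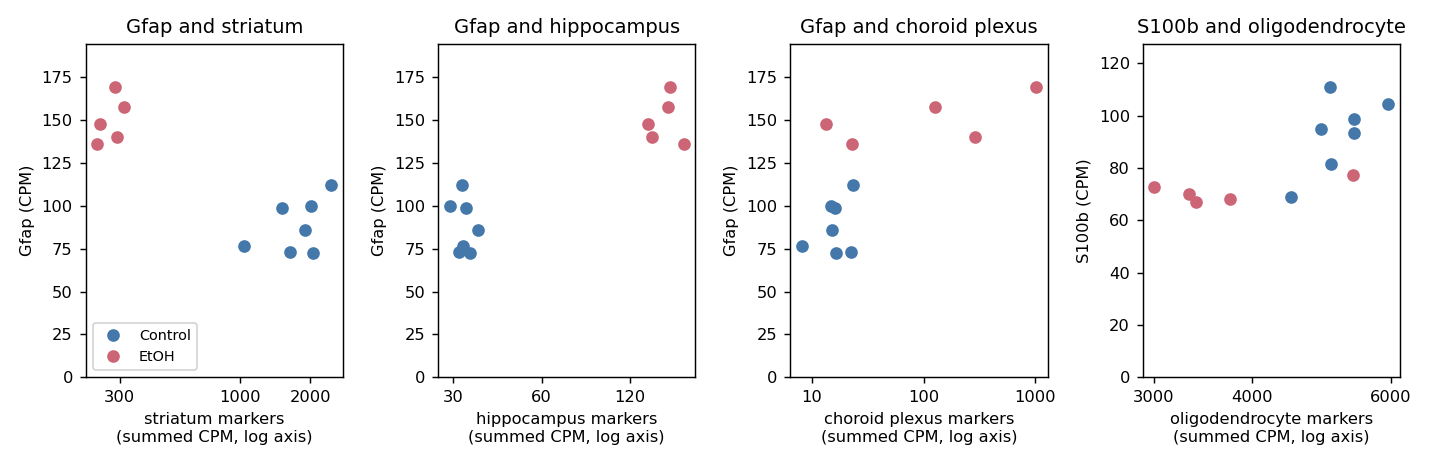
Level of Gfap (3 panels) or S100b (right panel) in CPM on the vertical axis against the summed level of marker genes in CPM on a log axis, with 1 point per mouse (Control blue, EtOH red). Striatal and hippocampal sums do not overlap between the groups, choroid plexus sums reach 1011 CPM in EtOH mouse 3, and the oligodendrocyte sums overlap through EtOH mouse 2, at 5372 CPM.

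To place the 10 genes among other genes of astrocytes, 11 further lists with 128 genes were read from the same fit, of which 115 were tested. In all, 3 were called higher and 8 lower (9.57%, beside 8.29% of all genes tested), 28.7% passed the adjusted p alone (beside 23.7%), and their median log2 fold change was -0.01. Without the 3 EtOH mice rich in choroid plexus markers, which left 2 EtOH mice and a weaker test, 3 of the 8 partner genes called lower were still called, namely C3, Id4 and S100a6. Aspg, H2-T23 and S100a11 lost the adjusted p (0.0649, 0.0565 and 0.101 by edgeR) at log2 fold changes of -0.80, -0.61 and -0.72. Gjb1 and Chrdl1 had smaller log2 fold changes than with all mice, of -0.39 and -0.42 (adjusted p 0.164 and 0.0374 by edgeR). Of the 3 called higher, Cd44 and Sntb1 were still called, and Cd109 had a log2 fold change of 1.12 (adjusted p = 0.158 by edgeR). Nfix was called in addition at a log2 fold change of 0.51. Of the 35 other astrocyte identity genes, 0 were called higher and 1 was called lower, 28 did not pass the adjusted p, and the median log2 fold change was 0.01. The called gene was Chrdl1, an antagonist of bone morphogenetic proteins that astrocytes secrete, at 21.5 CPM ± 2.28 (SD) in Control and 14.3 CPM ± 1.71 (SD) in EtOH mice (log2 fold change -0.59, adjusted p = 0.000146 by edgeR). Fgfr3, a growth factor receptor of astrocytes, and Ppp1r3c, a glycogen-targeting phosphatase subunit, rose (log2 fold changes 0.16 and 0.27). The secreted protease gene Htra1, the adhesion gene Hepacam, the cystatin gene Cst3 and the potassium channel gene Kcnj10 fell by 0.42, 0.26, 0.19 and 0.19.

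Genes that reactive astrocytes share across injuries did not move one way. Of 10 listed, 8 were tested, 1 was called higher and 1 lower. Cd44, the hyaluronan receptor, was at 1.90 CPM ± 0.423 (SD) in Control and 6.45 CPM ± 1.59 (SD) in EtOH mice, with no overlap (log2 fold change 1.76, adjusted p = 1.3e-06 by edgeR). Aspg, an asparaginase, had a log2 fold change of -0.87, from 3.66 CPM ± 0.847 (SD) to 2.01 CPM ± 0.216 (SD) (adjusted p = 0.00136 by edgeR). The receptors Osmr and S1pr3 rose (log2 fold changes 0.44 and 0.28), while Lcn2, an acute reactive marker, was at 0.382 CPM and 0.181 CPM, with 0 to 24 counts per mouse and an adjusted p of 0.173 by edgeR. The A1-type list, genes induced by inflammatory signals, had 0 of 12 called higher and 2 called lower, with a median of -0.29. These were the complement gene C3 (log2 fold change -1.34, adjusted p = 0.0186 by edgeR), which was below 1 CPM in both group means, and the class I histocompatibility gene H2-T23 (-0.75, adjusted p = 0.000881). A further member, H2-D1, fell by 0.47. Microglial markers, which can share such genes, had 5 of 9 lower at an adjusted p under 0.05 with C1qb called, and their sum was 357 to 395 CPM in Control against 302 to 327 CPM in EtOH mice. The A2-type list, genes induced after ischaemia, had 1 of 9 tested genes called higher, Cd109, at 1.03 CPM ± 0.482 (SD) and 2.40 CPM ± 1.12 (SD) (log2 fold change 1.22, adjusted p = 0.0150 by edgeR). Ptgs2, the inducible cyclooxygenase that cortical neurons also express, rose (log2 fold change 0.39).

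**Figure D4:**
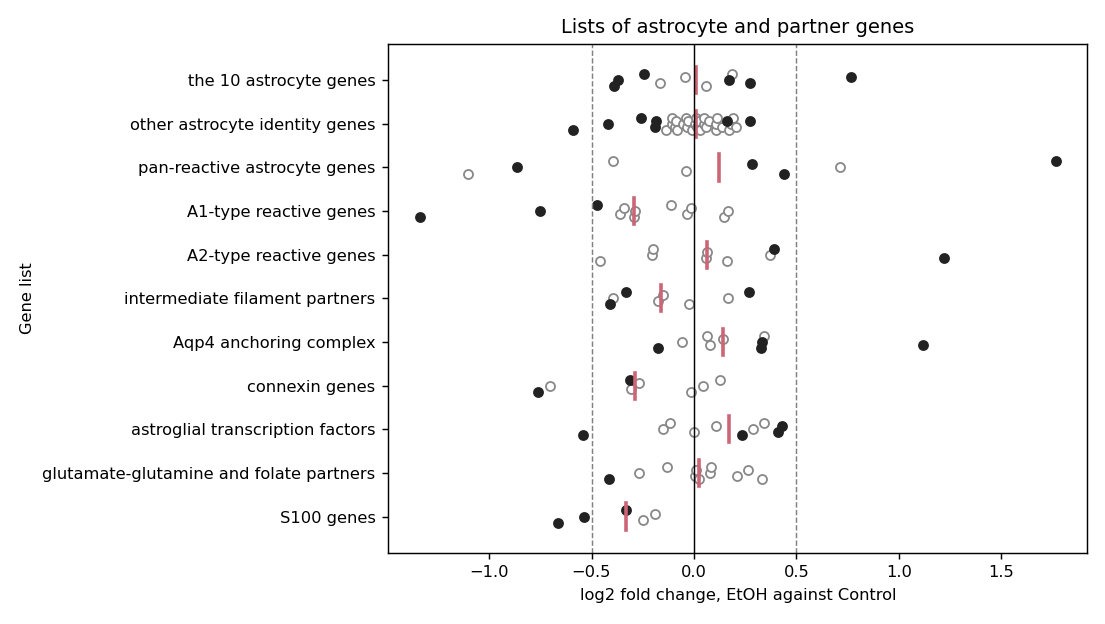
Log2 fold change, EtOH against Control, of every tested gene (points) in the 10 astrocyte genes and in 10 partner lists on the vertical axis, with filled points at an adjusted p under 0.05, red bars at the list medians and dashed lines at 0.5 and -0.5. The medians lie between -0.33 and 0.17, and Cd44 at 1.76 lies farthest to the right.

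Levels between genes were compared per kilobase of exon (RPKM), as group medians. The length was that of all annotated exons together, 12302 bases for Gja1 and 3919 for Gjb6, so the order rests on that annotation. In CPM, Gja1 was above Gjb6 in every mouse. Glul was the most abundant at 406 RPKM in Control and 297 RPKM in EtOH mice, followed by S100b at 47.6 and 35.1 RPKM, and no mouse of either group overlapped between these genes. Gfap and Aqp4 came next and did not differ beyond their spread in Control mice (12.7 to 19.6 RPKM and 13.1 to 16.1 RPKM). In EtOH mice Gfap, at 23.9 to 29.6 RPKM, stood clear of Aqp4, at 15.1 to 20.1 RPKM. Gjb6 and Gja1 exchanged places, with 12.7 and 10.9 RPKM in Control and 10.3 and 11.8 RPKM in EtOH mice, and their ranges overlapped in both groups. Sox9, Vim, Aldh1l1 and Serpina3n followed in that order in both groups, from 7.53 to 4.73 RPKM in Control and from 8.47 to 5.27 RPKM in EtOH mice. The ranges of Sox9 and Vim overlapped in both groups, and those of Vim and Aldh1l1 and of Aldh1l1 and Serpina3n overlapped in EtOH mice alone.

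Within a library, the 10 genes did not keep their proportions. Relative to Aldh1l1, the log2 ratio of Gfap was 0.80 ± 0.29 (SD, n = 7) in Control and 1.63 ± 0.25 (SD, n = 5) in EtOH mice, and all 5 EtOH ratios were above every Control ratio. The difference in ratio was 0.31 for Aqp4 and 0.22 for Gja1, -0.32 for Glul and -0.33 for S100b. Against the mean of the other astrocyte identity genes instead, the differences were 0.79 for Gfap and 0.18 for Gja1, with 5 of 5 EtOH mice above every Control mouse, and -0.36 for Glul, with 5 of 5 below. The difference was 0.28 for Aqp4, with 4 of 5 above, and -0.37 for S100b, with 4 of 5 below. These ratios are a description, with no test.

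The deviations of single mice from their group mean give a second view of how the genes vary together, over 12 mice and 45 pairs of genes. The median Pearson's r was 0.14, and 29 pairs were positive. S100b and Glul varied most closely (r = 0.81, Spearman's rho = 0.71), followed by Gjb6 with Glul (r = 0.74) and Gfap with Aqp4 (r = 0.66, rho = 0.55). Aqp4 with Aldh1l1 (r = -0.64) and Gjb6 with Sox9 (r = -0.62) varied in opposite ways. All points share library composition, so these values are descriptions.

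**Figure D5:**
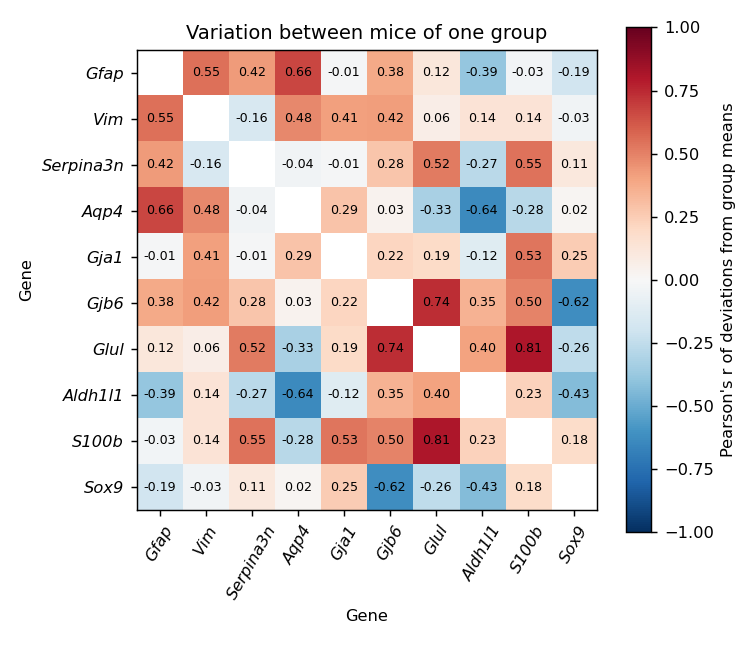
Pearson's r between each pair of astrocyte genes (both axes), over 12 mice, of log2 CPM values after subtracting the mean of each mouse's group. Red is positive and blue negative, and S100b with Glul at 0.81 is the deepest red.

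Among all genes tested, those whose deviations followed each gene most closely were picked as the 3 with the highest r over 12 mice, which selects extreme values. For Gfap they were Spo11, Med22 and Cibar2 (r = 0.87, 0.87 and 0.86), of which Spo11 and Cibar2 were below 1 CPM. For Vim they were Mamdc2, Sphk1 and Acot8 (r = 0.88, 0.87 and 0.86) and for Serpina3n they were Apbb1ip, Drg1 and Dennd2a (r = 0.93, 0.91 and 0.90). Aqp4 was followed by Arhgap18, Shisa9 and Smoc1 (r = 0.90, 0.89 and 0.89). Gja1 was followed by Gnai3, Slc39a12 and Srsf10 (r = 0.95, 0.93 and 0.92), where Slc39a12, a zinc transporter gene, is in the list of astrocyte identity genes. Gjb6 was followed by L3mbtl3, 4933432I03Rik and Slc39a5 (r = 0.93, 0.92 and 0.90), of which the last 2 were below 1 CPM, and Glul by Sec62, Eif4a2 and Bcap31 (r = 0.95, 0.94 and 0.94). For Aldh1l1, S100b and Sox9 the first were Rap1gds1, Pacsin3 and Dsn1 (r = 0.93, 0.92 and 0.91), Ranbp1, Cox6c and Umad1 (r = 0.95, 0.94 and 0.93), and Parvb, Rtl1 and Mtfr1l (r = 0.92, 0.90 and 0.90).

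The bases just upstream of a start are shown for Gfap, the gene called higher, and for Glul and S100b, the pair that fell by similar amounts and varied together. Each run is the 200 bases before the start of the canonical transcript in GENCODE's annotation of GRCm39, read 5′ to 3′ on the strand of the gene, at chr11:102788186-102788385 (minus strand) for Gfap, chr1:153776123-153776322 (plus strand) for Glul and chr10:76089284-76089483 (plus strand) for S100b. Capitals mark a match to a searched motif.
Gfap: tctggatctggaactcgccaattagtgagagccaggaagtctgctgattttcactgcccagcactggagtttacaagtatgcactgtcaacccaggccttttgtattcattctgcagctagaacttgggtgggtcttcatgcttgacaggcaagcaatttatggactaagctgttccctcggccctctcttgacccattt
Glul: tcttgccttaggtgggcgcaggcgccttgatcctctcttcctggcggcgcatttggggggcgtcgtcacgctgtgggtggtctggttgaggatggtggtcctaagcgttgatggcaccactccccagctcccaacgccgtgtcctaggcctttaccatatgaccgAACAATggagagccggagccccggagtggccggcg
S100b: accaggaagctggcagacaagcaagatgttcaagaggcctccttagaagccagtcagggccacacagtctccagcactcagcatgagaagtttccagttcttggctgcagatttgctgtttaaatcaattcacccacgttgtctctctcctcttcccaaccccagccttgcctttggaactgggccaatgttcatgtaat
The motifs searched on both strands were the TATA box TATAAA, the GC box GGGCGG, the STAT palindrome TTCNNNGAA, the AP-1 site TGANTCA, the NFI site TTGGCA, the SOX core AACAAT and the CRE TGACGTCA. Glul held the SOX core 35 to 30 bases before its start, a motif present in 7.43% of 21770 windows of the same length. Gfap held none of the 7 motifs, and those 200 bases contain 48.5% G and C beside 63.5% for Glul and 50.0% for S100b. The window of Sox9 held an AP-1 site 41 to 35 bases before the start and that of Gja1 held one 43 to 37 bases before it, a motif in 4.93% of windows. These matches describe the sequence alone, at 1 annotated start per gene. The annotated genes of Gfap, Glul and S100b reach farther upstream than these windows, to chr11:102791738, chr1:153775690 and chr10:76085090. Their other starts were not searched.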

How the data were processed

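RNA from the cortex of 12 mice (7 Control, 5 EtOH) was sequenced by BGI. The authors checked reads with FastQC 0.11.9, aligned them to GRCm39 with STAR and counted them with featureCounts. The authors deposited 1 table of expected counts per gene symbol, without normalization. Strand and multi-mapping settings are not given in the sources used here, so genes overlapping others are uncertain: the share of exon bases overlapping other annotated genes, mostly long non-coding RNAs, was 16.4% for Gjb6, 13.0% for Sox9, 12.3% for Vim, 7.34% for Aldh1l1, 3.72% for Glul and 1.16% for Gja1, and 0 for the other 4. Symbols were placed in the GENCODE annotation of GRCm39 supplied here, a newer release than the one the authors used.

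Counts were rounded to whole numbers (61 symbols were not whole) and filtered with filterByExpr, which left 16059 genes. Groups were compared with TMM factors (0.982 to 1.02) and edgeR's quasi-likelihood test (R 4.3.3, edgeR 4.0.16), with Benjamini-Hochberg adjustment over all genes. A gene was called where its adjusted p was under 0.05 and its log2 fold change exceeded 0.5 in either direction. A standard error is the log2 fold change divided by the square root of F. On simulated counts the test recovered 185 of 200 changed genes (log2 change 1) with 4 false calls among 15916 genes. Correlations used log2 CPM with a prior count of 2. RPKM used union exon length. Alternatives were DESeq2 1.42.0, voom in limma 3.58.1, RLE and upper quartile factors, 2 other filters, no minimum fold change, a replicate block, and each mouse left out. Leaving out the 2 deepest libraries, or the 3 EtOH mice rich in choroid plexus markers, was added after seeing the data.

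The 10 genes and all lists were chosen with earlier results of these data known. Named genes are the 10 members, every partner gene called, called marker genes (the 3 with the smallest p where more were called), and the 3 genes closest to each member. Other genes were named after their values were seen. Serpina3h had no row to match. Most listed genes enter the counts without being reported here singly. Total counts of 31768079 to 42183031 per mouse make 3 counts equal to at most 0.0962 CPM. The labels give no litter or cage, so p-values measure the spread between these 12 mice.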

Additional observations from a re-analysis of the deposited data

Results flagged for a closer look

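The mice of each group were searched for one that lay farther from the others than Dixon's 95% limit allows, on the log2 scale, a limit that chance alone passes in about 1 group in 20. For the 10 astrocyte genes and the 11 partner genes called, 0 of 42 groups held such a mouse. For the summed markers of 12 other cell types and regions, 3 of 24 did. Blood markers summed to 128 CPM in Control 6 and to at most 20.98 CPM in the other Control mice. Markers of oligodendrocyte precursors summed to 131 CPM in Control 3, beside 147 CPM in the next lowest Control mouse, and those of choroid plexus to 8.15 CPM in Control 7, beside 14.97 CPM in the next lowest. Control 6 also had the lowest Gfap, Serpina3n and Gjb6 and the highest Sox9 of the Control mice, and without it Gfap had a log2 fold change of 0.72. The part of blood in these values was not tested.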

How the results depend on the processing

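Dropping the minimum fold change raised the genes called to 1947 higher and 1863 lower, with 3 and 3 of the 10 astrocyte genes and 14 and 19 of the partner genes. Without the 3 EtOH mice rich in choroid plexus markers, 397 genes were called higher and 466 lower, with 3 and 3 of the partner genes, on 2 EtOH mice. Leaving out each mouse in turn gave 576 to 783 genes called higher and 586 to 727 lower, 1 to 1 and 0 to 0 of the 10 genes, and 3 to 3 and 6 to 9 of the partner genes. Gfap was called higher in every alternative run (log2 fold change 0.68 to 0.83). The small difference of Aldh1l1 turned to 0.0089 without EtOH 3 (-0.085 to 0.0089 over the mice left out in turn) and to 0.069 without the choroid plexus-rich mice. That of Serpina3n turned to -0.048 under the replicate block, -0.00096 without Control 6 (-0.00096 to 0.14 over the mice left out in turn) and -0.0499 without the choroid plexus-rich mice. The cause was not tested. With at least 1 count in any mouse as the filter, more genes were tested and the adjusted p of Vim was 0.0502 and that of Gja1 0.0517. Without the 2 deepest libraries they were 0.0661 and 0.0873.

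Labels number the mice alike in both groups, but no pairing by number was seen. Deviations of same-numbered mice correlated at 0.02, -0.02, -0.11, -0.02 and -0.0035, and 0 of 5 matched their own number best. A small effect shared by same-numbered mice could go unseen in these values. With the number as a block, 690 genes were called higher and 634 lower, and the adjusted p of Gfap was 0.00125, of Aqp4 0.0577, of Vim 0.0874 and of Gja1 0.0325.

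Genes below 1 CPM, such as C3 and Lcn2, rest on few counts per mouse. Levels are relative to each library, and 5 EtOH mice set the precision. Whole-tissue RNA gives no level per astrocyte, and RNA says nothing of GFAP protein.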
